A study of Mus musculus with 24 samples.

Results

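The genes described here mark spermatogonia and the steps that lead from them into meiosis. They were 10 listed genes: the stem cell and progenitor genes Gfra1, Zbtb16, Uchl1 and Nanos3, the regulators of differentiation Dmrt1, Sohlh1, Sohlh2 and Kit, the meiotic entry gene Stra8, and the germ cell RNA-binding gene Dazl. Members were all array probes whose annotated gene symbol was one of these names, which gave 9 of the 25697 probes and 8 of the 10 genes, out of 16593 annotated genes on the array. Sohlh1 was read by 2 probes and the other 7 genes by 1 probe each. No probe carried the symbol Kit or Zbtb16, so those genes were not analysed here.

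Transcripts were measured on Illumina MouseRef-8 bead arrays in testis, spleen and brain of mice homozygous for a mutation in Smc6, which encodes a subunit of the SMC5/6 chromosome complex, and of control mice. All were of a mixed C57BL/6J, 129ola and FVB background. Each of the 3 tissues had 4 mutants and 4 controls and 1 array for each animal. The 8 testes and 8 spleens were those of a single set of mice aged 12 weeks, whereas the brains were from a separate set aged 19 weeks. Control replicates 1 and 2 of testis and spleen were +/+ by their mouse identifiers and replicates 3 and 4 were +/-, although all 4 are called wildtype in the genotype field, while the brain controls carry only that field. The mutants of testis and spleen were -/- by identifier, the design gives the mutant mice as male homozygotes, and the labels name no promoter, Cre driver or clone.

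In the adult mouse testis, spermatogonia lie on the basement membrane of the seminiferous tubule, and a few of them are stem cells that respond to GDNF from Sertoli cells through GFRA1 and RET. Retinoic acid drives their progeny to differentiate, under SOHLH1 and SOHLH2, and then to enter meiosis through STRA8. Spermatogonia are a small share of the cells of an adult testis, in which spermatocytes and spermatids prevail.

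Whole tissue RNA was assayed, so fewer cells of a type and less RNA per cell cannot be told apart in any value below. Between 12708 and 13344 probes were detected on a testis array, 12049 to 13134 on a spleen array and 13784 to 14234 on a brain array, where detected means a detection p under 0.05 against the negative control beads. Of the later germ cell markers, 11 of 11 spermatid genes and 8 of 12 spermatocyte genes were detected on all 4 control testis arrays. The spermatocyte genes Dmc1, Hormad1, Mybl1 and Sycp2 were detected on none of these arrays. The same held for Mael, Sycp3 and Usp26, from the list of differentiation and meiotic entry described below. Whether a probe without signal reflects the transcript or the probe was not tested. Among leukocyte markers 8 of 9 were detected on all spleen arrays, without Cd8a, and among neuron markers 7 of 10 on all brain arrays, with Nefl and Snap25 detected on none. The summed level of 11 pancreas markers was 11.09 on the log2 scale in testis mutant 1 and lay between 8.23 and 9.20 in the other 7 testes. In spleen that sum was 14.42 in mutant 1 and 13.54 in mutant 2, and between 8.99 and 9.88 in the other spleens.

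The promoters of 4 members are shown because these genes give the 3 patterns of signal described below: a strong testis signal with little elsewhere (Sohlh1 and Dazl), a signal close to background (Sohlh2), and a signal stronger in brain (Uchl1). RefSeq's promoter windows of build GRCm38.p6 run from 250 bases before the annotated start to 50 bases after it, are printed 5′ to 3′ on the gene's strand, and carry the palindrome CACGTG, a form of the E-box that basic helix-loop-helix proteins can bind, in capitals. The windows are chr2:25847199-25847498 on the minus strand for Sohlh1, chr17:50293571-50293870 on the minus strand for Dazl, chr3:55181794-55182093 on the plus strand for Sohlh2 and chr5:66675871-66676170 on the plus strand for Uchl1.
Sohlh1: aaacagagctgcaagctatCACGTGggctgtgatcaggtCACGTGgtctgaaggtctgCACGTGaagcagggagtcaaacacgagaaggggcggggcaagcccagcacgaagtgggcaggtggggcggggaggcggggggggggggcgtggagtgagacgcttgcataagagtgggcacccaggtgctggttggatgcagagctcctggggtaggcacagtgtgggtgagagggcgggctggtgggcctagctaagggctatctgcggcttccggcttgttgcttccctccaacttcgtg
Dazl: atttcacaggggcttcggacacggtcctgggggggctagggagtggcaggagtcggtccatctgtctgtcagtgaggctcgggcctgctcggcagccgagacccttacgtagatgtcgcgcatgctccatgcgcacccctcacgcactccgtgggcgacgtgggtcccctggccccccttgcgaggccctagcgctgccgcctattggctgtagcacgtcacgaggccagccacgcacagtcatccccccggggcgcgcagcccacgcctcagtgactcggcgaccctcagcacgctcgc
Sohlh2: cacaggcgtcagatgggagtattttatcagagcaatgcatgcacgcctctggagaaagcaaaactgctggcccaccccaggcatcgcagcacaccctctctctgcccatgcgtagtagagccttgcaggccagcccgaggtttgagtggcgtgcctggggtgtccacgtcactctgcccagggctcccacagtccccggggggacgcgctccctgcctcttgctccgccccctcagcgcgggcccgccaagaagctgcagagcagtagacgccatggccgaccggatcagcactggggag
Uchl1: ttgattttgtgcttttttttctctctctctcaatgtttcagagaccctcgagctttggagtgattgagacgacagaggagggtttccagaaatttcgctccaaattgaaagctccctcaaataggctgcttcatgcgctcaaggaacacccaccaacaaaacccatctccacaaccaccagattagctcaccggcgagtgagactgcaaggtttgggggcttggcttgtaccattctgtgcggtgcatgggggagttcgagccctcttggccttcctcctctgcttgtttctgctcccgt

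The Sohlh1 window held CACGTG 3 times, beginning 231, 211 and 192 bases before the start. Of the 32851 promoter windows of this length, 7.15% held the motif and 0.0883% held it at least 3 times. The windows of the other listed genes with an entry, Dazl, Sohlh2, Uchl1, Gfra1, Nanos3, Stra8 and Kit, did not hold these letters, and Zbtb16 and Dmrt1 had no entry. On either strand, GGGCGG, a GC box, was found 3 times in the Sohlh1 window, and once each in those of Sohlh2, Nanos3 and Kit. Of all windows, 35.7% held at least 1 and 10.7% held at least 3. GCGGGAA, also sought on both strands, was in none of the members' windows and in 4.6% of all windows. No match of GGGCGG shared bases with one of CACGTG in the Sohlh1 window. The Dazl window had 28 CpG dinucleotides, more than 85.8% of all windows, whose median was 7. Sohlh2 had 17, Sohlh1 14 and Uchl1 9. These counts describe letters in a window and say nothing of which factor binds there.

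In control testis, Dazl, both Sohlh1 probes and Uchl1 were far above background on every array, Sohlh2 was near the limit of detection, and Gfra1, Nanos3, Stra8 and Dmrt1 gave little or no signal. Dazl and Sohlh1 were not detected on any spleen array, and Uchl1 was brighter in brain than in testis. Signal in brain was also found for Dazl, on 8 of 8 arrays at a level 15.6-fold below testis in controls. Over all probes, 48.3% were detected on all 8 brain arrays. Levels below are log2 intensities after background correction and normalization of the 24 arrays together, and the lowest signal called detected on an array lay between 4.62 and 4.96 on this scale. The correction adds an offset of 16 intensity units before the logarithm, so differences of dim probes are understated. Intensities of different probes are not comparable, and each probe is compared only with itself. The brains came from a separate and older set of mice. Tissue, age and set of animals therefore cannot be told apart where testis is compared with brain, mutant effects included.

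**Figure D1:**
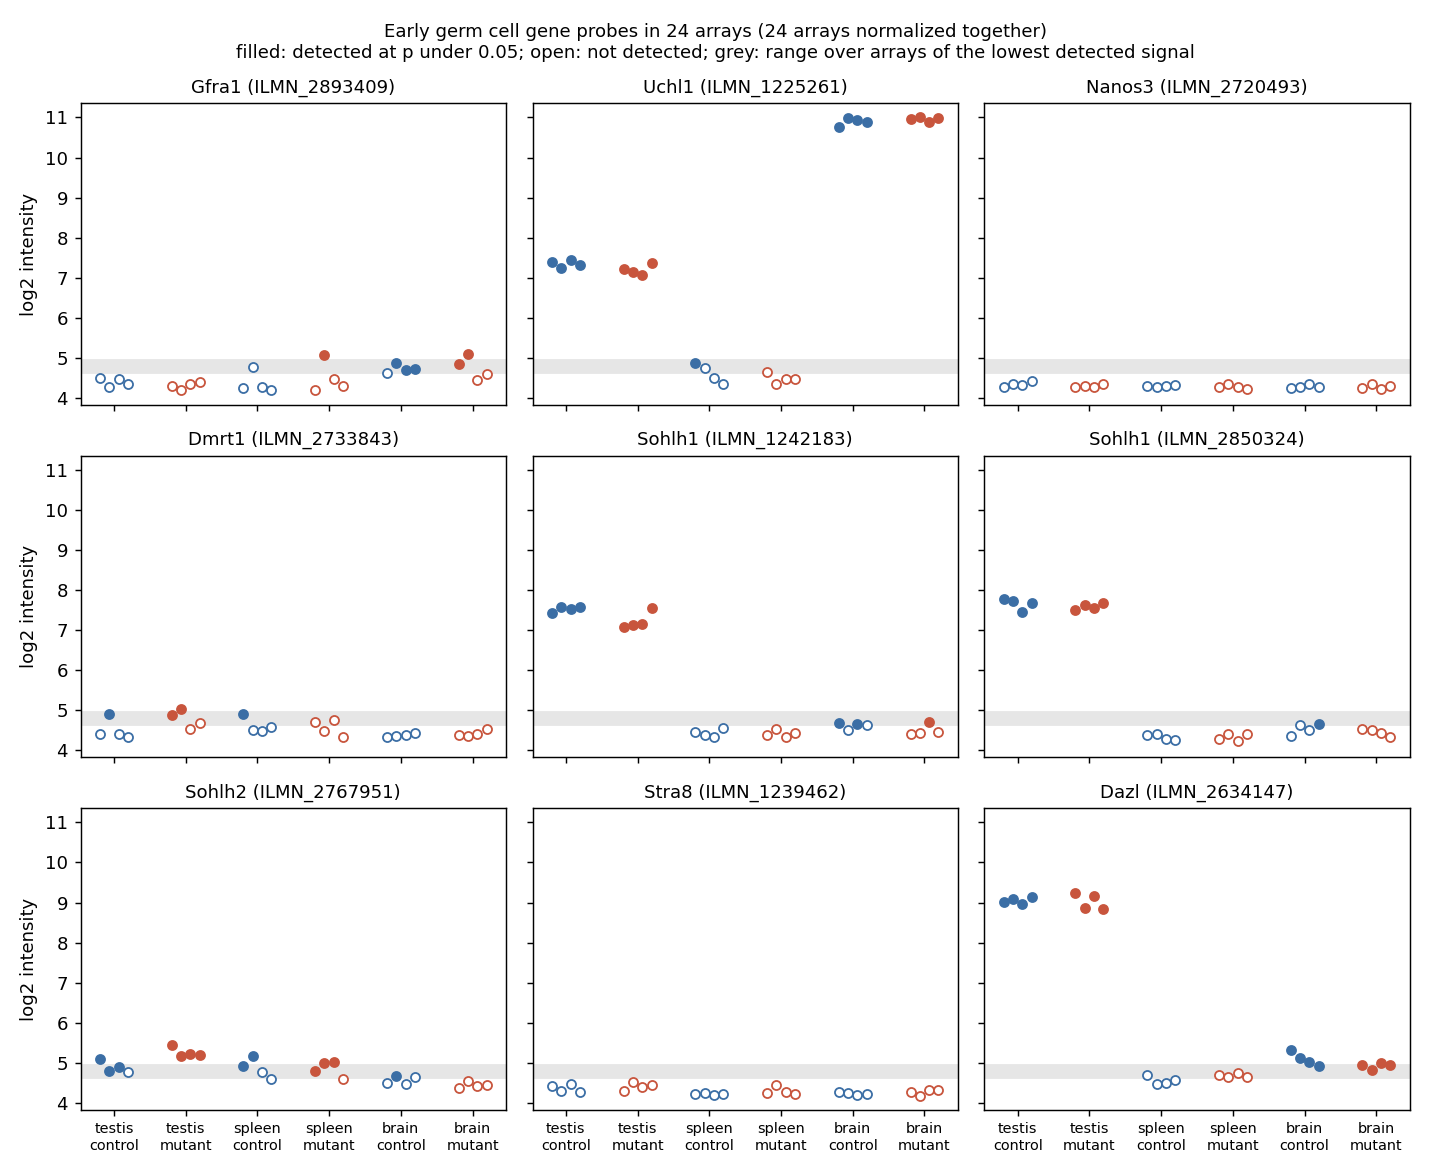
Log2 intensity of the 9 member probes on each of the 24 arrays, normalized together, with controls in blue, mutants in red, filled points for arrays with a detection p under 0.05 and open points for the rest. The grey band spans the lowest detected signal of the arrays, 4.62 to 4.96. Dazl and both Sohlh1 probes stand high in the 8 testes and Uchl1 is highest in the 8 brains, while Nanos3 and Stra8 lie below the band in every tissue.

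Of the stem cell and progenitor genes, Gfra1, which encodes the GDNF co-receptor of spermatogonial stem cells, was detected on 0 of 8 testis arrays, with background-subtracted intensities from -8.07 to 4.21. It was detected on 1 of 8 spleen arrays, mutant 2 at an intensity of 11.0, and on 5 of 8 brain arrays, 3 of them controls. The 4 control testes had log2 levels of 4.51, 4.27, 4.47 and 4.35 and the 4 control brains 4.61, 4.88, 4.69 and 4.72. The difference of -0.33 (testis minus brain, SE 0.16, 95% interval -0.65 to -0.0023) had an adjusted p of 0.0562 by limma over 16549 probes. With the replicate number as a block in the model, the limma adjusted p was 0.0492. The difference depended on the scaling: the deposited normalized values gave -0.86 (limma adjusted p 0.0239), and values without quantile normalization -0.0050 (limma adjusted p 0.978). Since the testis group was below detection throughout and the brain group near it, no fold is given.

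Uchl1, which encodes a ubiquitin hydrolase found in spermatogonia and abundant in neurons, was detected on all 8 testis and all 8 brain arrays and on 1 of 8 spleen arrays. Control testes had log2 levels of 7.39, 7.25, 7.44 and 7.32, control spleens 4.88, 4.76, 4.51 and 4.36, and control brains 10.76, 11.00, 10.94 and 10.89. The order of levels was brain, testis, spleen. Control testis was 6.61-fold above control spleen (log2 difference 2.72, SE 0.10) with an adjusted p of 3.1e-18 by limma, and 1 of the 4 spleens, control 1, passed the detection limit, so this fold rests largely on spleen values below detection. Control brain was 11.7-fold above control testis (testis minus brain -3.55, SE 0.10, limma adjusted p 8.16e-21).

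Nanos3, an RNA-binding protein of primordial germ cells and undifferentiated spermatogonia, was detected on 0 of the 24 arrays. Its intensities lay between -5.10 and 1.61 in testis, -6.33 and -0.36 in spleen, and -7.62 and -0.71 in brain. The tissues overlapped at the level of the background.

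Dmrt1, a transcription factor that holds spermatogonia back from meiosis and also acts in Sertoli cells, was detected on 3 of 8 testis arrays: control 2 and mutants 1 and 2. It was also detected in control spleen 1 and in 0 of 8 brains. Testis intensities were 1.69, 10.3, 1.35 and -0.97 in the controls and 14.7, 17.3, 4.99 and 7.08 in the mutants, and these groups overlap. With fewer than 4 of 8 testis arrays detected, the probe entered no test.

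Sohlh1 encodes a basic helix-loop-helix factor needed for spermatogonia to differentiate. Both of its probes were detected on 8 of 8 testis arrays and on 0 of 8 spleen arrays, as were 11.4% of the 11357 probes detected on all testis arrays. The probe ILMN_1242183 read 7.43, 7.58, 7.53 and 7.57 in control testes and 4.46, 4.38, 4.34 and 4.55 in control spleens. The probe ILMN_2850324 read 7.79, 7.72, 7.46 and 7.68 in control testes and 4.38, 4.41, 4.30 and 4.27 in control spleens. Testis was at least 6.26-fold and at least 6.87-fold higher respectively. The measured log2 differences were 3.10 and 3.32 (limma adjusted p 9.77e-20 and 1.43e-21). Both probes entered that test through testis alone, so they could hardly fail it. Here and below, "at least" sets the mean of the brighter group against the lowest detected signal of the arrays on which the probe was not detected. In brain, 3 of 8 arrays passed the detection limit on ILMN_1242183 and 1 of 8 on ILMN_2850324, none of them at a detection p under 0.01. Control testis was 7.48-fold and 8.65-fold above control brain on the respective probes (log2 differences 2.90 and 3.11, SE 0.10 and 0.09, limma adjusted p 2.58e-19 and 3.39e-21). Of the 4 control brains, 2 were detected on the first probe and 1 on the second, so these folds rest largely on brain values below detection.

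Sohlh2, the partner of Sohlh1 in the same step, gave a signal close to the detection limit in every tissue. It was detected on 7 of 8 testis arrays, 5 of 8 spleen arrays and 1 of 8 brain arrays, and at a detection p under 0.01 on 1 testis array alone, mutant 1. Control testes had log2 levels of 5.09, 4.79, 4.90 and 4.78, control spleens 4.93, 5.18, 4.76 and 4.60, and control brains 4.50, 4.68, 4.47 and 4.64. Testis and spleen overlapped, with a difference of 0.02 (SE 0.12, 95% interval -0.22 to 0.26, limma adjusted p 0.854). Control testes lay above control brains by 0.32 on average (SE 0.11, limma adjusted p 0.0135). That test was passed by 85.8% of the 16549 probes, in either direction. Of these control brains 1 of 4 was detected. The call was lost without testis control 1, at 0.25 and an adjusted p of 0.0596, and the value ran from 0.14 with an offset of 50 to 0.66 without quantile normalization.

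Stra8, the retinoic acid target that starts the meiotic programme, was detected on 0 of the 24 arrays, with testis intensities from -3.92 to 5.15. Spleen and brain intensities reached 2.45 and -2.03 at most.

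Dazl encodes an RNA-binding protein that germ cells use from their embryonic origin through meiosis, and its transcript is thus not limited to spermatogonia. Its probe was detected on 8 of 8 testis arrays, 0 of 8 spleen arrays and 8 of 8 brain arrays. Detection on all 8 brain arrays held for 48.3% of all probes. Control testes had log2 levels of 9.02, 9.10, 8.97 and 9.15, control spleens 4.71, 4.47, 4.51 and 4.57, and control brains 5.31, 5.12, 5.03 and 4.91. The order of levels was testis, brain, spleen, with every spleen value below detection. Control testis was at least 18.1-fold above control spleen and 15.6-fold above control brain (log2 difference 3.97, SE 0.10, limma adjusted p 2.76e-22). The measured log2 difference from spleen was 4.50 (limma adjusted p 3.29e-23). The probe entered that test through testis alone, so it could hardly fail it. The brain signal was low but not at background: intensities were 37.1, 31.8, 25.04 and 20.6 in controls and 22.0, 16.3, 21.3 and 19.5 in mutants, and the detection p was under 0.01 on 7 of the 8 arrays. Whether this signal is Dazl transcript or another sequence bound by the probe was not tested.

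Between control testis and control spleen, 85.7% of the 15288 probes tested passed an adjusted p of 0.05, with 38.3% higher in testis and 47.4% lower. Between control testis and control brain the shares were 85.8% of 16549, 38.6% and 47.2%. Of the 5 member probes tested against spleen, 4 were higher in testis and Sohlh2 did not pass. Of the 6 tested against brain, 4 were higher in testis (Dazl, both Sohlh1 probes, Sohlh2), Uchl1 was lower and Gfra1 did not pass. A probe entered these tests through detection in at least 1 of the tissues compared, so probes that are bright in a single tissue could hardly fail them. How often the levels of control tissues overlap over all probes was not counted.

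Genes of the same stages outside the listed members were described from lists of textbook markers. Of 20 further genes of undifferentiated spermatogonia, 18 were on the array and 12 were measured against spleen: 5 were higher in control testis and 6 lower, with a median difference of -0.42 on the log2 scale, against -0.28 over all 10623 genes tested. Those with the smallest p were Foxo1 (a forkhead factor of stem cell maintenance, 5.71 in testis and 9.00 in spleen), Egr2 (4.92 and 7.12), Sdc4 (7.76 and 9.31) and Lhx1, a target of GDNF signalling, at 5.89 ± 0.35 (SD, n = 4) in testis and detected on none of the 4 control spleens. Against brain, 4 of 14 were higher in testis and 9 lower (median -0.75, all genes -0.23), led by the POU factor Pou3f1 at 4.73 in testis and 7.87 in brain. Over all genes, 36.8% were higher in testis than in spleen and 49.6% lower, and 38.3% were higher than in brain and 48.5% lower.

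Of the genes of differentiating spermatogonia and meiotic entry, 7 of the 11 measured against spleen were higher in control testis and 3 lower (median 2.10), and against brain 7 of 11 were higher and 2 lower (median 2.22). The genes with the smallest p against spleen were Taf7l (a germ cell TFIID subunit, 8.73 ± 0.12 in testis), Tex101 (8.32 ± 0.08), Tex14 (required for germ cell bridges, 9.15 ± 0.07) and Rec8 (the meiotic cohesin subunit, 9.16 ± 0.25; SD, n = 4 throughout). Taf7l and Tex101 were detected on none of the 4 control spleens, and Tex14 and Rec8 on 1 of 4, so they entered the test through testis.

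Of 17 genes of niche signals and receptors, among them GDNF, KIT ligand, FGF and retinoic acid genes, 9 were detected on no control testis array. Over all probes, 51.2% were detected on at least 4 of the 8 testis arrays, which is another rule. The share of all probes detected on no control testis array was not counted. Of 10 niche genes measured against spleen, 3 were higher in testis and 7 lower (median -0.40). Aldh1a2, which makes retinoic acid, was higher in testis (7.83 ± 0.07) than in spleen (4.95 ± 0.19), and Cxcl12, a chemokine of stem cell niches, was lower (6.94 and 11.85). The spermatocyte and spermatid markers were higher in testis than in spleen in 8 of 8 and 11 of 11 measured genes. The spermatocyte markers Dmc1, Hormad1, Mybl1 and Sycp2 were detected on no control testis and were not measured. Of those measured, Ccna1, Msh4 and Sycp1 were detected on no control spleen, as were 4 of the 11 spermatid markers. Genes bright in testis alone could hardly fail this test.

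**Figure D2:**
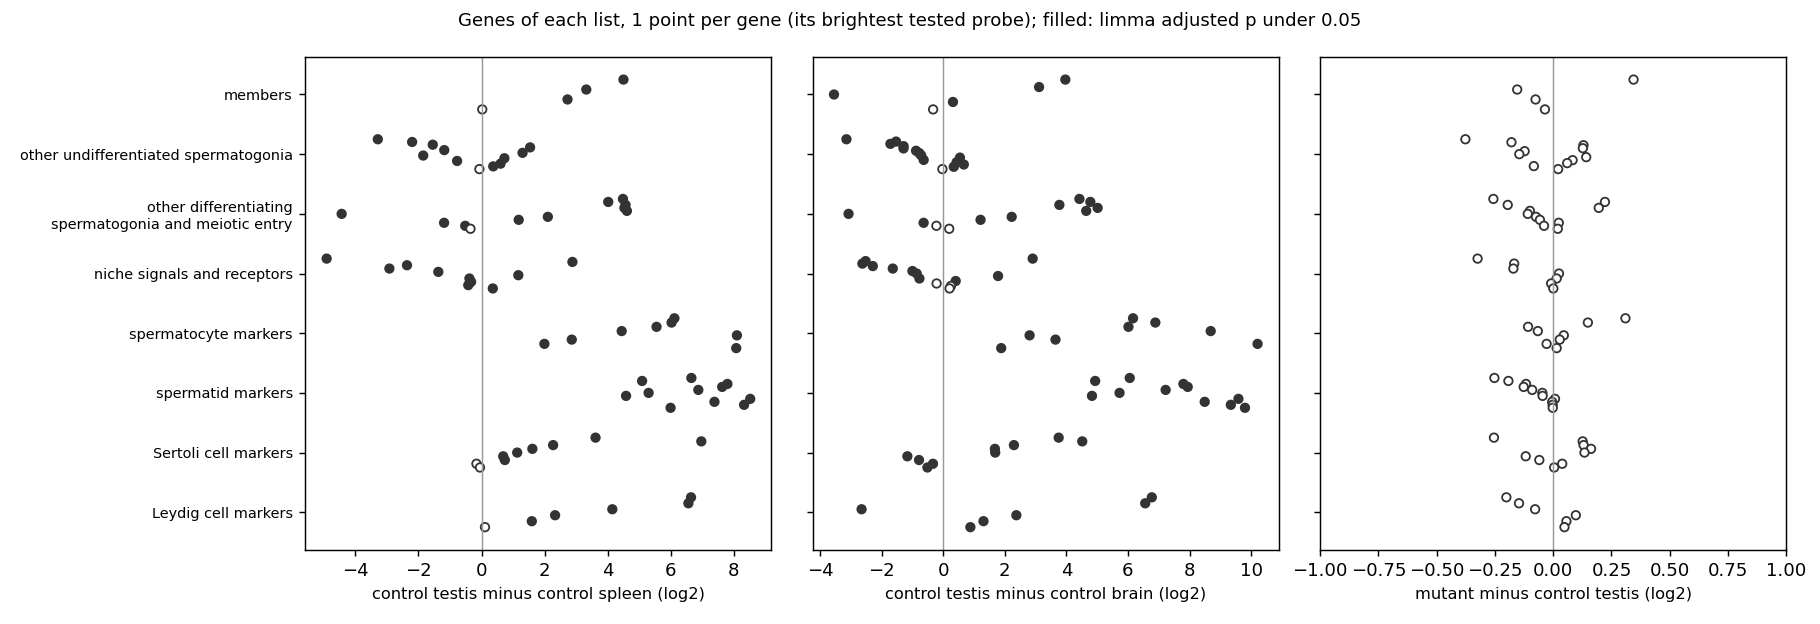
Log2 differences of control testis from control spleen (left) and control brain (middle), and of mutant from control testis (right, on a scale of its own), 1 point for each measured gene of each list, filled where the limma adjusted p was under 0.05. Spermatocyte and spermatid markers lie to the right of 0 in the left and middle panels, the other undifferentiated spermatogonia lie on both sides, and no point is filled in the right panel.

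Whether the Smc6 mutation was accompanied by changes in early germ cell transcripts was asked by comparing the 4 mutant with the 4 control testes. None of the 5 member probes tested passed, and the largest differences were Sohlh2 at 0.35 and 1 of the Sohlh1 probes at -0.31 on the log2 scale. Over all probes 0 of 13152, or 0%, passed an adjusted p of 0.05 by limma, and 629, or 4.78%, had an unadjusted p under 0.05. Uchl1 differed by -0.15 and Dazl by -0.04. Values in this comparison come from the 8 testis arrays normalized together, which shifts levels slightly from those given above.

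Sohlh2 read 5.04, 4.75, 4.86 and 4.74 in controls and 5.37, 5.11, 5.16 and 5.13 in mutants. All 4 mutants were above all 4 controls, which held for 1.3% of the 13152 probes, and groups without overlap in either direction made up 2.71%. The difference was 0.35 (SE 0.10, 95% interval 0.13 to 0.56, 1.27-fold), with an unadjusted p of 0.00426, the rank 44 of 13152 by p, and an adjusted p of 0.976 by limma. In intensity units the controls read 17.1, 8.42, 13.3 and 10.3 and the mutants 29.9, 20.8, 20.5 and 16.5, and control 1 lay above mutant 4 before normalization. The highest value, mutant 1, came from the testis with the highest pancreas marker sum, and the part of that in the result was not tested: without mutant 1 the difference was 0.28, with an adjusted p of 0.999. At a detection limit of 0.01 the probe left the test, having passed on 1 of 8 arrays.

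Neither Sohlh1 probe passed the test. ILMN_1242183 read 7.35, 7.51, 7.45 and 7.50 in controls and 6.99, 7.02, 7.07 and 7.49 in mutants. Mutants 1, 2 and 3 were below all controls and mutant 4 stood among them. The difference was -0.31 (SE 0.11, 95% interval -0.56 to -0.06), with an unadjusted p of 0.0187 and a limma adjusted p of 1.00. ILMN_2850324 read 7.73, 7.66, 7.38 and 7.61 in controls and 7.43, 7.56, 7.48 and 7.61 in mutants, which overlap. Its difference was -0.08 (SE 0.10, 95% interval -0.28 to 0.13, limma adjusted p 1.00). The 95% intervals of the probes overlap.

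Uchl1 read 7.31, 7.16, 7.36 and 7.24 in control testes and 7.14, 7.05, 6.96 and 7.30 in mutants. The groups overlap, with a difference of -0.15 (SE 0.09, 95% interval -0.36 to 0.05, limma adjusted p 1.00). Dazl read 9.05, 9.14, 9.00 and 9.18 in controls and 9.29, 8.88, 9.19 and 8.87 in mutants. Its mutants spread on both sides of the controls, with an SD of 0.22 against 0.08 and a difference of -0.04 (SE 0.11, 95% interval -0.28 to 0.21, limma adjusted p 1.00). In fold terms that interval runs from 0.826 to 1.15.

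**Figure D3:**
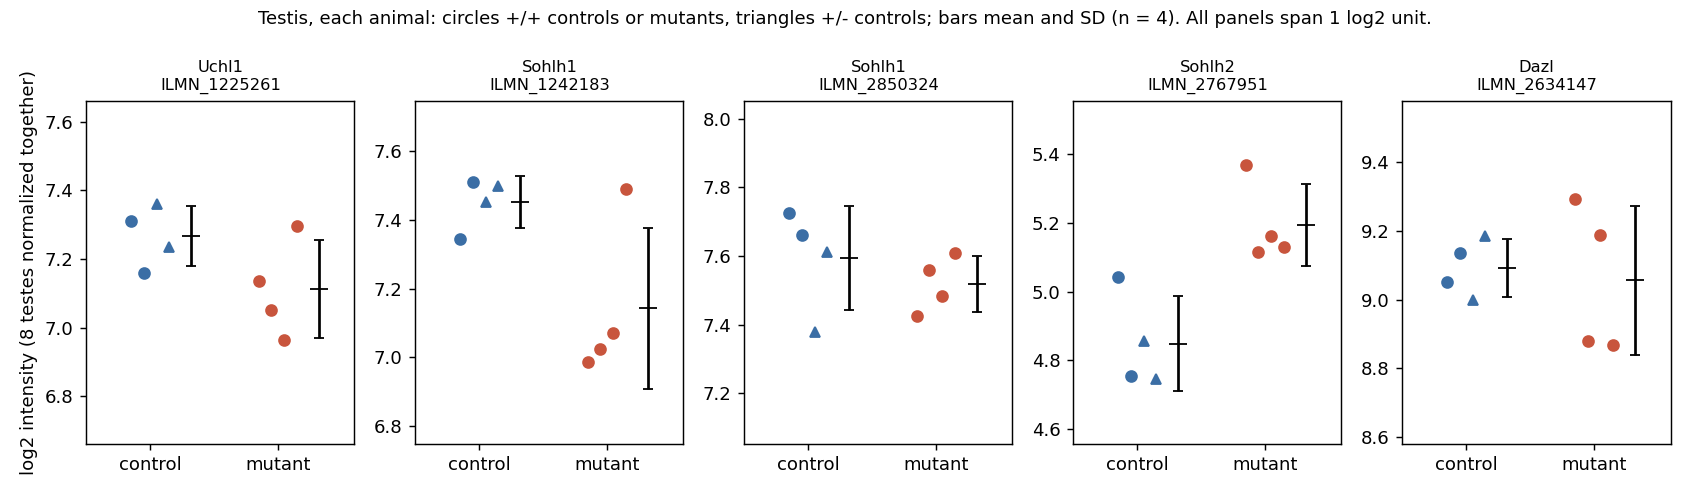
Log2 intensity in each of the 8 testes, normalized together, for the 5 member probes tested, with blue circles for +/+ controls, blue triangles for +/- controls, red circles for mutants, and bars for the mean and SD of 4 animals. Each panel spans 1 log2 unit. Sohlh2 mutants (5.11 to 5.37) lie above the controls (4.74 to 5.04), and mutant 4 of Sohlh1 ILMN_1242183 (7.49) lies apart from the other mutants (6.99 to 7.07).

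**Figure D4:**
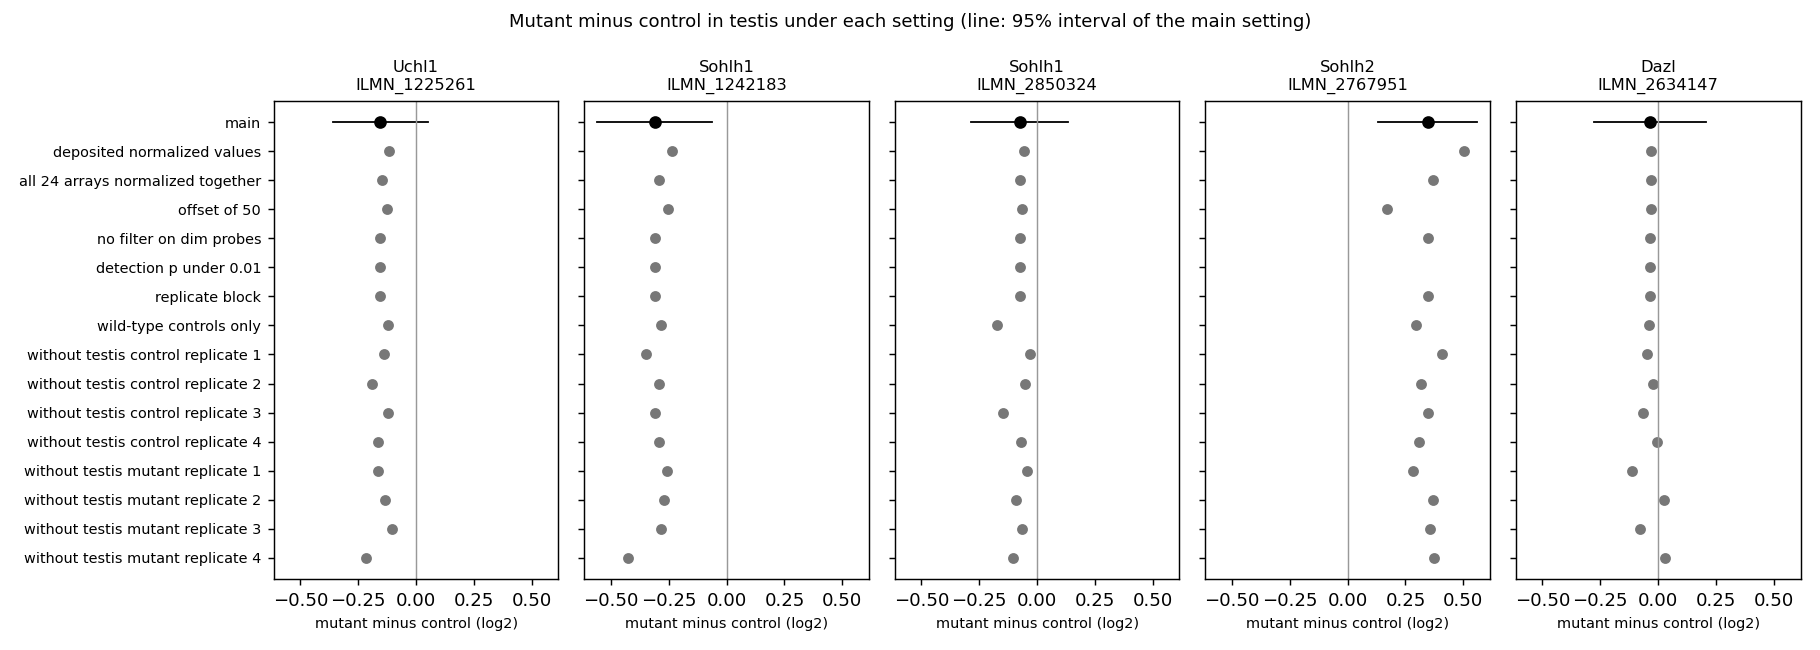
Mutant minus control difference in testis (log2) of the 5 member probes under the main setting (black, with its 95% interval) and under each alternative setting (grey). Sohlh2 stays above 0 between 0.17 and 0.50 and has no value at a detection p under 0.01, both Sohlh1 probes and Uchl1 stay below 0, and Dazl crosses 0.

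In the other tissues no measured member passed the test between mutants and controls. In spleen 0 of 12449 probes, or 0%, passed by limma, with 216 (1.74%) at an unadjusted p under 0.05, and Sohlh2 differed by -0.01 (SE 0.12, limma adjusted p 1.00). In brain 4 of 14027 probes passed, or 0.0285%, none of them a member, and 1660 (11.8%) had an unadjusted p under 0.05. Dazl differed by -0.21 in brain (SE 0.11, unadjusted p 0.0714, limma adjusted p 0.464), where the upper quartile of raw intensity was 152 ± 7.24 in mutants and 177 ± 8.27 in controls (SD, n = 4). The part of this dimmer signal in the Dazl value was not tested. Without brain control 1, the brightest, the Dazl difference was -0.12. Brain Uchl1 differed by 0.06 (SE 0.07, limma adjusted p 0.810) and brain Gfra1 by 0.03 (SE 0.17, limma adjusted p 0.971).

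The mutant effect on Sohlh2 in testis exceeded that in spleen by 0.38 (SE 0.16, unadjusted p 0.0282), with a limma adjusted p of 1.00, so a difference between these tissues was not shown. Against brain, the effects on Uchl1 and Dazl differed by -0.21 (SE 0.15) and 0.13 (SE 0.14), each with a limma adjusted p of 1.00. Over all probes, 1 of 10313 (0.0097%) and 1 of 10630 (0.00941%) passed in these contrasts, and 4.43% and 3.54% had an unadjusted p under 0.05.

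The other genes of the same stages did not pass in the mutant testis either. Of 11 measured genes of undifferentiated spermatogonia 0 passed, with a median of 0.02 against 0.0027 over all 9271 genes tested. The ones with the smallest p were the GDNF target Etv5 (5.51 ± 0.28 in mutants, 5.88 ± 0.16 in controls, unadjusted p 0.0169, limma adjusted p 1.00), Id4 (difference -0.18), Egr2 (0.13) and Pou3f1 (0.13). Of 11 genes of differentiation and meiotic entry 0 passed (median -0.06), with Nxf2 at -0.26, Prdm9, which places meiotic recombination hotspots, at 0.22, the germ cell helicase Ddx4 at -0.20 and Ccnd2 at 0.20. Of 7 niche genes 0 passed (median -0.01), with the chemokine receptor Cxcr4 at -0.32 (SE 0.10, unadjusted p 0.00746, limma adjusted p 0.978), Rara at -0.17, Gdnf at -0.17 and Wnt5a at 0.03. No gene passed among 8 spermatocyte markers (median 0.02), 11 spermatid markers (median -0.05, 1 above 0, 2 at an unadjusted p under 0.05), 9 Sertoli cell markers (median 0.04) or 6 Leydig cell markers (median -0.01). At an unadjusted p under 0.05 stood 1 gene of each of the 3 spermatogonial and niche lists and 398 of all 9271 genes. Summed levels of the list of undifferentiated spermatogonia were 9.70 to 9.91 in control testes and 9.74 to 9.81 in mutants, those of the Sertoli cell list 12.99 to 13.16 and 13.10 to 13.20, and those of the spermatid list 16.11 to 16.21 and 16.05 to 16.14. The first sum was higher in control spleens (10.69 to 10.99) and control brains (10.61 to 10.76). The Sertoli cell sum was higher in control brains (13.64 to 13.70) and lower in control spleens (12.01 to 12.56). The undifferentiated and Sertoli cell sums thus do not measure those cell types alone.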

How the data were processed

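Biotinylated cRNA was made from total RNA of 24 mouse tissue samples for bead arrays, per the labels' protocols. The main deposited table pairs linear, background-subtracted intensity values with detection p-values, per the file headers. The submitters' processing notes name GenomeStudio 2011.1. Intensities below 0 made up 22.2% to 25.1% of an array. A second deposited table holds normalized intensity values with medians of 24.0 to 24.2 per array, in the same rank order as the first on every array, and served as an alternative. How it was normalized is not given in the sources used here. Slide and scan date were not used here.

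Intensities were corrected, quantile normalized and put on the log2 scale with neqc of limma 3.58.1 (R 4.3.3, offset 16), for the 8 arrays of a tissue in mutant comparisons and for all 24 arrays in tissue and interaction comparisons. Probes entered a test when detected at p under 0.05 on at least 4 of 8 arrays (of either tissue between tissues, of both for interactions). Groups were compared with lmFit and eBayes, with Benjamini-Hochberg adjustment over all probes tested. The number of arrays limits the precision, and p-values measure the spread between animals. Testis and spleen share animals by their identifiers (correlation of deviations -0.02 to 0.16, within-animal correlation in the model 0.01). The animal as a random block was therefore an alternative for testis against spleen and for the interactions. For testis against brain, which came from separate animals, the replicate number within each genotype was the block instead. Of the probes, 23978 had 1 symbol, 0 several and 1719 none, and the symbols of 9 of 9 member probes matched the reference gene table. Other lists used the detected probe with the highest mean per gene. All member probes are named, and of each other list at most 4 genes, those with the smallest p in the comparison described. The members and lists were chosen with earlier results of these data known. The method was tested on simulated data.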

Additional observations from a re-analysis of the deposited data

Results flagged for a closer look

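In mutant testis the Sohlh1 probe ILMN_1242183 had 1 animal apart from the others: mutant 4 read 7.49 on the log2 scale, and the other 3 mutants lay between 6.99 and 7.07. The gap to the nearest mutant exceeded the 95% limit of Dixon's test for 4 samples. Of 13 groups tested in this way 1 stood out, and chance marks about 1 in 20. The second Sohlh1 probe, ILMN_2850324, read 7.61 in the same animal and 7.43 to 7.56 in the other mutants. Without mutant 4 the difference of ILMN_1242183 from controls was -0.43 in place of -0.31, and still did not pass (limma adjusted p 0.584). ILMN_2850324 differed by -0.11 without that animal. Against the +/+ controls alone, with all mutants kept, ILMN_1242183 differed by -0.28 (limma adjusted p 0.924).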

How the results depend on the processing

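In testis and in spleen 0 probes passed between mutants and controls under each of the 15 alternatives tried, left-out animals included. No member changed its call in a mutant comparison: of 189 alternative values, 180 kept direction and call and 9 changed sign, all of probes that differed by less than 0.05 on the log2 scale. The brain count of 4 probes became 1 with the deposited normalized values, 32 with all 24 arrays normalized together, 58 with an offset of 50, 0 without the filter on dim probes, and 0 to 6 with 1 animal left out. The testis against spleen interaction count of 1 became 2 with the deposited values, 4 without the filter and 1 to 3 with 1 animal left out, and that against brain became 0, 2 and 0 to 1. The cause was not tested. Leaving out 1 animal gave Dazl in testis -0.11 to 0.028, Sohlh2 in spleen -0.064 to 0.052, Gfra1 in brain -0.13 to 0.17 (-0.029 with the deposited values) and Sohlh2 in testis against spleen -0.068 to 0.13 (-0.12 without quantile normalization). Sohlh2 in testis ranged from 0.28 to 0.41 with 1 animal left out and from 0.17 to 0.50 otherwise, with 0.30 against the +/+ controls alone. Gfra1 in testis against brain passed with the deposited values (-0.86, limma adjusted p 0.0239) and with the replicate number as a block (limma adjusted p 0.0492). It was -0.13 with an offset of 50 (limma adjusted p 0.0881) and -0.0050 without quantile normalization (limma adjusted p 0.978). Sohlh2 in testis against brain ran from 0.14 (offset of 50) to 0.66 (no quantile normalization), and Dazl in brain mutants from -0.29 to -0.12. With the offset of 50, Uchl1 in testis against spleen was 1.75. The replicate number did not pair mutants with controls in testis (correlations of deviations -0.06 to 0.03), spleen (-0.38 to 0.10) or brain (-0.15 to 0.28). With it as a replicate block 0 probes passed in testis and in brain, and Sohlh2 in testis had an adjusted p of 0.949. Signal over background limits Gfra1, Nanos3, Stra8, Dmrt1 and Sohlh2, whose differences the arrays could hardly measure in testis.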

Other observations

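Of the 11 spermatid markers on the array, 2 were detected on all 4 control spleens and 4 on none, against 2 and 8 in control brains. Over all probes, 39.8% were detected on all 8 spleens and 48.3% on all 8 brains, mutants included, a stricter rule than detection on the 4 controls. The share of all probes detected on none of the 4 controls of a tissue was not counted. The summed log2 level of the spermatid markers ran from 8.43 to 10.07 in control spleens, 8.76 to 11.15 in mutant spleens and 7.92 to 7.97 in control brains. In control testes the sum was 16.11 to 16.21. The spermatocyte marker sum was 9.32 to 9.83 in control spleens and 10.52 to 10.61 in control brains. The members Dazl and Sohlh1, detected on all testis arrays, were detected on none of the 8 spleens. Over all probes, 1290 of the 11357 detected on all 8 testis arrays (11.4%) were likewise detected on no spleen array. Of those 11357 probes, 12.5% were detected on no brain array.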
